A study of Mus musculus with 30 samples.

Results

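Mouse embryonic fibroblasts (MEFs) had been turned into induced pluripotent stem cells (iPSCs) by 2 routes, a chemical one and one with 4 delivered transcription factors, and the change each route made from day 0 to iPSCs was compared gene by gene. The comparison used 8 of the 30 libraries of the series, chosen by their labels: 2 each of CF1_iPSC, CF1_D0, TFR_iPSC and TFR_D0. CF1_iPSC and CF1_D0 are labelled with the genotype CF1, an outbred mouse stock, and belong to the chemical arm, whose MEFs were moved to a chemical reprogramming medium; the labels' protocol for this route names OG2 MEFs, while the genotype of these libraries is CF1. TFR_iPSC and TFR_D0 are labelled 129XOG2. In that arm Oct4, Sox2, Klf4 and c-Myc were delivered by lentivirus, and the reprogramming medium held serum, serum replacement and 2 µg/ml doxycycline. OG2 mice carry a green fluorescent reporter driven by regulatory sequence of Oct4. All 4 iPSC libraries came from cells plated on feeder cells in the same medium with 1000 units/ml LIF, 3 µM CHIR99021, which inhibits GSK3, and 0.2 µM PD0325901, which inhibits MEK. Both day 0 groups were untreated MEFs in serum medium. The labels do not say that the 2 libraries of a group came from separate cultures. The p-values rest on the spread between the libraries of a group, pooled over the 10 groups of both arms. That spread may be technical. Mouse stock, reprogramming method and table of origin change together between the arms and cannot be told apart.

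A MEF that becomes an iPSC shuts down collagen and other matrix genes, switches on its own Oct4, Sox2 and Nanog, and takes up the state of the early epiblast. In medium with LIF and inhibitors of GSK3 and MEK, mouse pluripotent cells are held in the naive state, with low signalling through ERK and stabilised beta-catenin. Imprinted genes, which are expressed from 1 parental copy by virtue of DNA methylation set in the germ line, are known as a weak point of reprogrammed and cultured cells. Stress on amino-acid supply or protein folding is relayed by the transcription factor ATF4, which raises genes of amino-acid synthesis and transport.

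Expression was deposited as FPKM, a fragment count divided by transcript length and library size, and was analysed as log2(FPKM + 1). A change is iPSC minus day 0 within an arm, and the difference is the CF1 change minus the TFR change. All changes, differences and gaps below are on this log2 scale, on which changes of genes with low FPKM come out too small, and ± after them is the standard error of the fit. Levels are FPKM, and ± after a mean level is the SD with n = 2. Genes of chromosomes X and Y were left out, and 15589 genes with at least 1 FPKM in at least 2 of the 20 libraries of both arms were tested with limma, with Benjamini-Hochberg adjustment over all of them. A gene was called at an adjusted p under 0.05 and a value of at least 1, that is 2-fold.

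The libraries labelled CF1_iPSC did not follow the other CF1 libraries at the genes that separate those from the libraries labelled 129XOG2. On the autosomes, 31 genes separated the 8 CF1 libraries of days 0 to 12 from all 20 libraries labelled 129XOG2 by at least 1 on the log2 scale, with no overlap. The CF1_iPSC libraries were not used to find them. Both CF1_iPSC libraries lay nearer to 129XOG2 at 30 of the 31 genes, and at the remaining one, Rps26-ps1, they fell on either side of the midpoint. They lay within the range of the 129XOG2 libraries at 27 genes and within the range of the CF1 libraries at 0. The ribosomal protein gene Rps18 had 701 and 630 FPKM in CF1_iPSC, against 30.3 to 55.7 FPKM in the 8 CF1 libraries of days 0 to 12 and 276 to 889 FPKM in the 129XOG2 libraries. Of the 31 genes, 25 are ribosomal protein genes or pseudogenes, whose reads can be split among near-identical copies. The other 6 include both entries of Nnt, nicotinamide nucleotide transhydrogenase, which overlap on the same strand of chromosome 13. The entry ENSMUSG00000116207 was listed at 0 in all 8 CF1 libraries of days 0 to 12, against 8.04 to 10.2 FPKM in CF1_iPSC and 1.58 to 16.5 FPKM in 129XOG2. Whether the position of CF1_iPSC comes from the stock of the cells, from the handling of these libraries or from the iPSC state cannot be told apart. They are called CF1-labelled iPSCs below, and every direction given for the CF1 change sets them against CF1_D0 fibroblasts that differed from them at these genes.

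**Figure D1:**
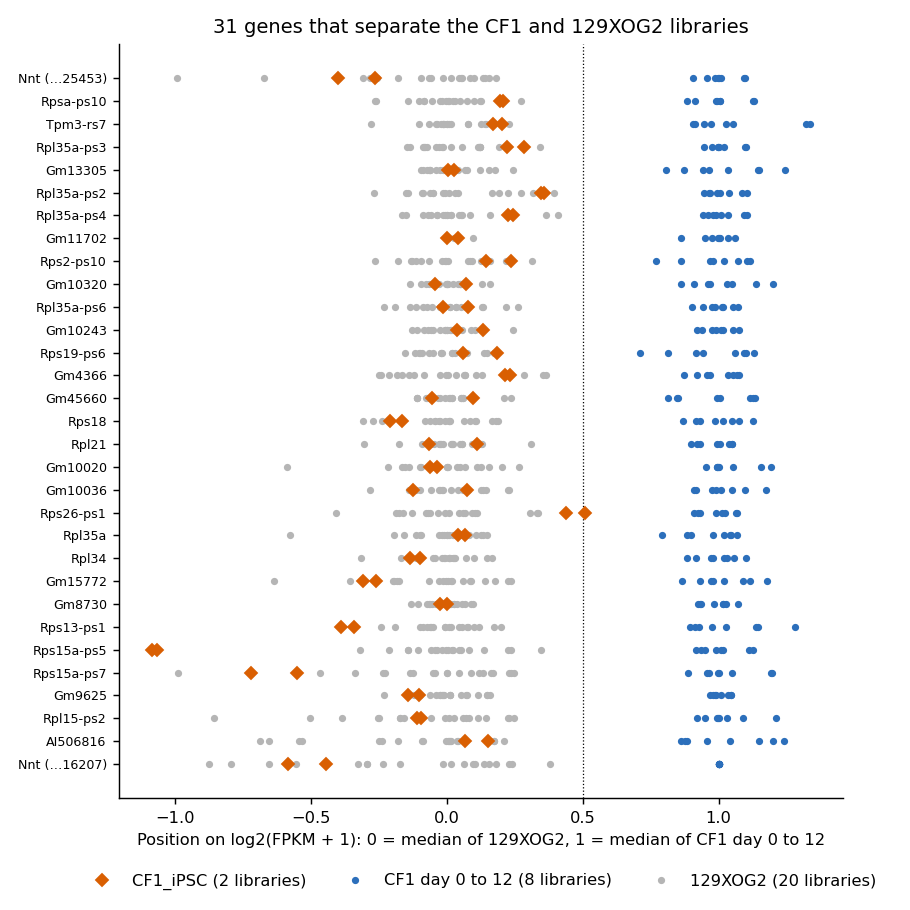
Position of each library on a scale per gene where 0 is the median log2(FPKM + 1) of the 20 libraries labelled 129XOG2 and 1 that of the 8 CF1 libraries of days 0 to 12, for the 31 autosomal genes that separate both sets (Nnt has 2 entries, shown with the end of their identifiers). The diamonds, the 2 libraries labelled CF1_iPSC, sit left of the dotted midpoint at 30 genes, and at Rps26-ps1 one lies on each side of it.

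The files hold no read counts, so the sequencing depth of these 8 libraries is unknown. Replicates correlated over genes with r = 0.9915 in CF1_iPSC, 0.9962 in CF1_D0, 0.9842 in TFR_iPSC and 0.9954 in TFR_D0, and 252 genes lay over 2-fold apart between the TFR_iPSC replicates, against 32 to 104 in the other 3 groups. All 4 iPSC libraries carried the naive pluripotency programme that their label asks for. Nanog, a core pluripotency factor, had 340 and 338 FPKM in CF1-labelled iPSCs and 348 and 320 FPKM in TFR_iPSC, and Esrrb, a nuclear receptor that sustains naive cells, had 183 and 199 FPKM against 221 and 176 FPKM. The iPSC libraries of the arms overlap for Esrrb and for Nanog, and the day 0 levels of both genes were at most 0.304 FPKM. In bulk RNA, fewer cells of a type and less RNA per cell cannot be told apart.

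Most of what changed, changed in both arms. The CF1 change was called for 6051 of the 15589 genes (38.8%; 3170 or 20.3% higher, 2881 or 18.5% lower) and the TFR change for 5940 (38.1%; 3196 or 20.5% higher, 2744 or 17.6% lower). Both arms shared 4421 calls in the same direction, which is 73.1% of the CF1 calls and 74.4% of the TFR calls, and 22 genes were called in opposite directions. The difference of the changes was called for 1678 genes (10.8%), positive for 911 (5.84%) and negative for 767 (4.92%), around a median of -0.03 over all genes. These shares of all genes are the background for every count over a gene list below. It reached 4-fold for 261 genes and 8-fold for 68. Of the 1678 genes, 503 were called in the same direction in both arms and differed in size, 919 were called in 1 arm only, and 234 in neither.

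A difference can come from iPSCs that differ between the arms or from fibroblasts that already differed at day 0. Levels of both tables were therefore set side by side, without a test, since each table may have had a normalization of its own. At day 0, 969 genes (6.22%) lay at least 2-fold apart between CF1_D0 and TFR_D0, and 535 (3.43%) did so between CF1-labelled iPSCs and TFR_iPSC. For 646 of the called genes (38.5%) the iPSC gap was the larger one, and for 1032 (61.5%) the day 0 gap was. The day 0 gap was the larger one for 493 of the 911 positive and 539 of the 767 negative differences.

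**Figure D2:**
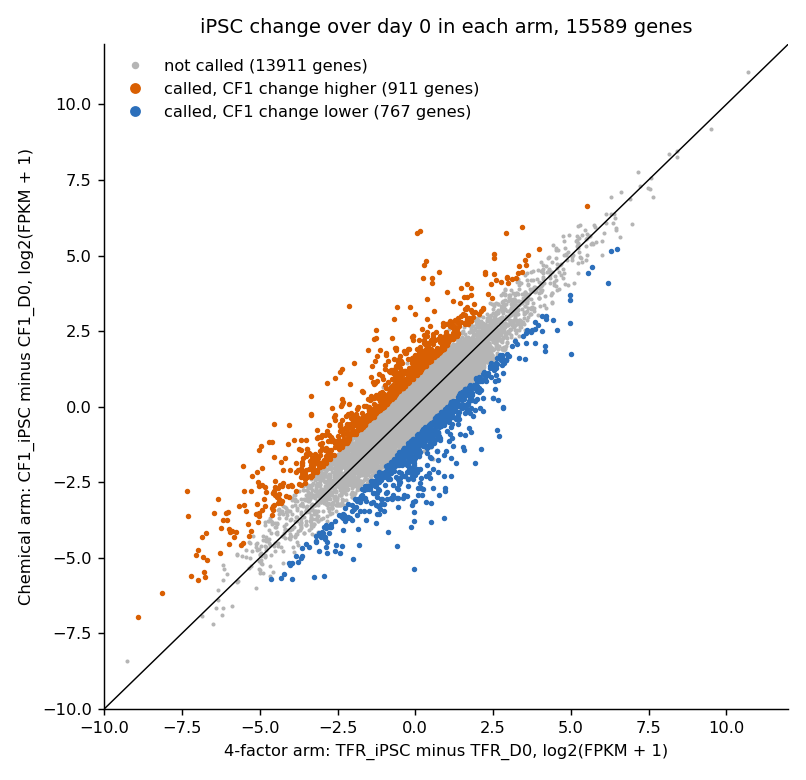
Change from day 0 to iPSC on the log2(FPKM + 1) scale in the chemical arm (vertical axis) against the 4-factor arm (horizontal axis), 1 point per gene for 15589 genes, with the line of equal change. The 911 genes with a higher CF1 change lie above the line and the 767 with a lower CF1 change below it; genes that were not called are grey.

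Most genes of the ATF4 response and of serine synthesis had a higher CF1 change. Of 20 tested members, 16 had a higher CF1 change and 0 a lower one, against 5.84% and 4.92% of all genes, and their median difference was 1.62, against -0.03 over all genes. The CF1 change was called higher for 10 members and lower for 2, and the TFR change was called higher for 2 and lower for 9. The iPSC gap was the larger one for 10 of the 16 and the day 0 gap for 6. The count stayed at 16 or 17 under every other setting and with each library left out.

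Nupr1, a stress-induced chromatin protein (ENSMUSG00000030717, chromosome 7, 126623249 to 126630861), had 39.6 and 64.6 FPKM in CF1-labelled iPSCs and 8.25 and 7.36 FPKM in CF1_D0, and 9.46 and 14.7 FPKM in TFR_iPSC and 29.6 and 29.6 FPKM in TFR_D0. Both CF1-labelled iPSC libraries were above their day 0 libraries and both TFR_iPSC libraries below theirs, without overlap. The rules that named Nupr1 ask for opposite calls and for pairwise changes without overlap, so this is no separate support. The CF1 change was 2.55, the TFR change -1.25 and the difference 3.81 ± 0.42 (limma, adjusted p = 1.31e-05). Trib3, a pseudokinase that feeds back on ATF4, had 43.7 and 53.5 FPKM in CF1-labelled iPSCs and 9.60 and 8.98 FPKM in CF1_D0, against 13.3 and 18.6 FPKM in TFR_iPSC and 39.5 and 39.0 FPKM in TFR_D0. It was also called in opposite directions, with a difference of 3.53 ± 0.24 (limma, adjusted p = 1.31e-07). Chac1, which breaks down glutathione, had 25.1 and 28.4 FPKM in CF1-labelled iPSCs and 9.68 and 8.82 FPKM in CF1_D0, against 6.40 and 7.48 FPKM in TFR_iPSC and 28.9 and 31.1 FPKM in TFR_D0. The iPSC libraries of the arms did not overlap, nor did the day 0 libraries, and the difference was 3.40 ± 0.30 (limma, adjusted p = 1.61e-06).

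Other members differed in several ways, and Cth and Asns rose in both arms by unequal amounts. Cth, which makes cysteine from cystathionine, had 151 and 149 FPKM in CF1-labelled iPSCs and 4.16 and 3.74 FPKM in CF1_D0, against 50.2 and 51.5 FPKM in TFR_iPSC and 8.28 and 7.78 FPKM in TFR_D0, a difference of 2.41 ± 0.14 (limma, adjusted p = 2.76e-08). Asns, asparagine synthetase, stood at 562 ± 7.25 FPKM in CF1-labelled iPSCs and 323 ± 0.16 FPKM in TFR_iPSC (SD, n = 2 each), and its difference was 1.44. Ddit3, the stress factor CHOP, had 21.4 and 24.5 FPKM in CF1-labelled iPSCs and 23.6 and 23.4 FPKM in CF1_D0, with overlap, against 4.1 and 5.13 FPKM in TFR_iPSC and 33.6 and 36.3 FPKM in TFR_D0. Its difference of 2.65 ± 0.21 (limma, adjusted p = 5.08e-07) went with a fall in the TFR arm and no call in the CF1 arm. Gpt2, the mitochondrial alanine aminotransferase, which the list does not hold, had 66.0 and 67.1 FPKM in CF1-labelled iPSCs and 7.31 and 6.63 FPKM in CF1_D0, against 23.1 and 20.6 FPKM in TFR_iPSC and 22.8 and 20.9 FPKM in TFR_D0. It rose in the CF1 arm alone, and the difference was 3.08 ± 0.14 (limma, adjusted p = 7.18e-09). Pck2, mitochondrial phosphoenolpyruvate carboxykinase, differed by 3.39 and was called in opposite directions. Atf4 itself had 244 and 287 FPKM in CF1-labelled iPSCs, against 113 and 146 FPKM in TFR_iPSC, and a difference of 1.35; it lies on chromosome 15, whose genes were higher as a whole in CF1-labelled iPSCs (given further on). Slc3a2, Phgdh, Shmt2 and Sesn2 were not called, with differences of 0.68 to 0.95.

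ATF4 binds with C/EBP proteins at a composite element whose core reads TGATGNAA. The core was searched on both strands in the RefSeq promoter windows of GRCm38.p6. Each window runs from 250 bases before to 50 bases after an annotated start. The 25748 autosomal genes have 31396 windows, and a match in any window of a gene was counted. The core was found for 8 of the 18 list genes that have a window there, and for 4.33% of all 25748 autosomal genes with one. The list was written from general knowledge of the ATF4 response, so its share is not independent of how its genes were chosen. ATF4 action in these libraries was not tested. Shown for 6 called members is the stretch around the match, because these are genes whose change differed most or that are classic ATF4 targets. Each is written 5′ to 3′ on the gene's strand, with the match in capitals. Where the core lies on the opposite strand, the capitals show its reverse complement.
Nupr1 (chr7:126625557-126625596, minus strand): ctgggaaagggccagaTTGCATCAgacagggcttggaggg
Chac1 (chr2:119351033-119351072, plus strand): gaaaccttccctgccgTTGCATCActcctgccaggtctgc
Trib3 (chr2:152344023-152344062, minus strand): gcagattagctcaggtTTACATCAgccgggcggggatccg
Pck2 (chr14:55540147-55540186, plus strand): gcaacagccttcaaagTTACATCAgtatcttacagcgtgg
Asns (chr6:7693209-7693248, minus strand): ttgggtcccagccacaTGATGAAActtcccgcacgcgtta
Slc7a11 (chr3:50443637-50443695, minus strand): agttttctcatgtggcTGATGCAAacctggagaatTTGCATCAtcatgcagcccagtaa
Slc7a11, the cystine transporter, holds 2 matches on opposite strands. The stretch shown for Nupr1 lies inside the gene span given above, not at its upstream end. A match is a stretch of letters and was not tested as a binding site.

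**Figure D3:**
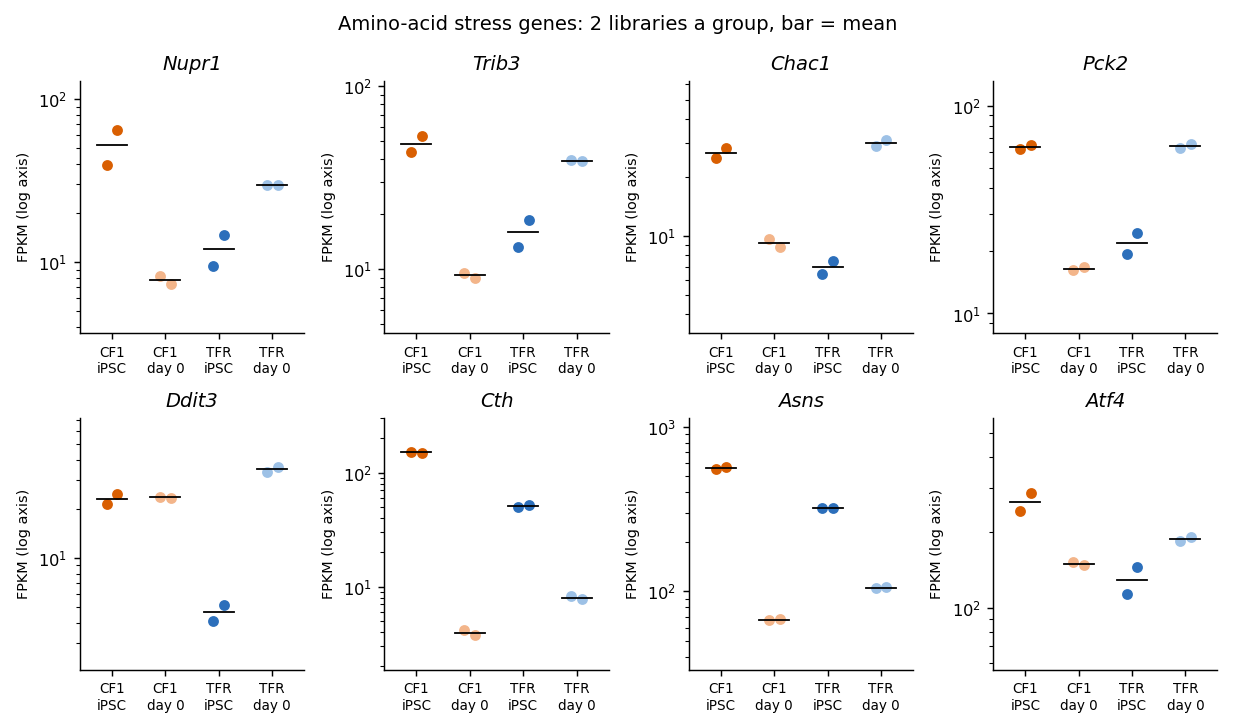
FPKM on a log axis of 8 genes of the amino-acid stress list in CF1_iPSC, CF1_D0, TFR_iPSC and TFR_D0, each point 1 library and each bar the mean of 2. For Nupr1, Trib3, Chac1 and Pck2 the CF1-labelled iPSCs lie above CF1_D0 and the TFR iPSCs below TFR_D0; Cth and Asns are higher in iPSCs of both arms, and Ddit3 falls in the TFR arm.

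The fibroblast matrix programme fell in both arms, and fell less far in the CF1 arm. All 35 tested members of the fibroblast and mesenchyme list were called lower in each arm, with median changes of -3.80 in the CF1 arm and -5.12 in the TFR arm. The difference was called positive for 19 and negative for 0, with a median of 1.15. For 14 of the 19 the iPSC gap was the larger one. Col3a1, which encodes collagen III (ENSMUSG00000026043, chromosome 1, 45311538 to 45349706), had 16.8 and 17.1 FPKM in CF1-labelled iPSCs and 223 and 212 FPKM in CF1_D0, against 2.33 and 2.02 FPKM in TFR_iPSC and 511 and 494 FPKM in TFR_D0. The CF1-labelled iPSC libraries were both higher than the TFR_iPSC libraries, although CF1_D0 was lower than TFR_D0. The difference was 3.70 ± 0.11 (limma, adjusted p = 9.98e-11).

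Dcn, the matrix proteoglycan decorin, had 21.5 and 18.5 FPKM in CF1-labelled iPSCs and 46.0 and 45.8 FPKM in CF1_D0, against 0.468 and 0.450 FPKM in TFR_iPSC and 35.8 and 38.6 FPKM in TFR_D0, a difference of 3.55 ± 0.19 (limma, adjusted p = 1.7e-08). Ptx3, a secreted pentraxin of innate immunity, was no list member and had the largest positive difference among protein-coding genes whose gap was larger in iPSCs. It had 21.0 and 19.9 FPKM in CF1-labelled iPSCs and 31.8 and 29.4 FPKM in CF1_D0, against 1.37 and 1.44 FPKM in TFR_iPSC and 54.5 and 56.4 FPKM in TFR_D0. The CF1 change was not called, and the difference was 4.00 ± 0.19 (limma, adjusted p = 7.99e-09). Cxcl1, a neutrophil chemokine, had 5.43 and 5.66 FPKM in CF1-labelled iPSCs and 0.376 and 0.171 FPKM in TFR_iPSC, with a difference of 3.10.

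Summed over the list, FPKM was 1010 and 1000 in CF1-labelled iPSCs and 563 and 539 in TFR_iPSC. Vim, Fn1, Fstl1, Timp3, Fap, Zeb2 and S100a4, all list members, were not called, with differences of -0.67 to 0.44. All 15 tested members of a contractile list also fell in each arm, with median changes of -4.84 (CF1) and -4.67 (TFR). Their difference was called positive for 0 and negative for 2, with a median of -0.26. The contractile sums were 201 and 211 FPKM in CF1-labelled iPSCs and 118 and 134 FPKM in TFR_iPSC. The iPSCs grew on feeder cells, which are usually fibroblasts; the share of feeder RNA in each library was not tested.

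Imprinted genes gave some of the largest differences. At the Dlk1-Dio3 locus of chromosome 12, the 3 maternally expressed noncoding RNAs Meg3, Rian and Mirg had higher CF1 changes, and the other 4 of 7 members were not called. Meg3 (ENSMUSG00000021268, chromosome 12, 109541001 to 109571726) had 127 and 129 FPKM in CF1-labelled iPSCs and 50.4 and 48.2 FPKM in CF1_D0, against 44.3 and 45.3 FPKM in TFR_iPSC and 123 and 113 FPKM in TFR_D0. It rose in the CF1 arm by 1.36 and fell in the TFR arm by 1.38, and the difference was 2.74 ± 0.15 (limma, adjusted p = 2.26e-08). The groups did not overlap within either arm, and the order of the arms at day 0 was the reverse of that in iPSCs. Rian had 340 and 302 FPKM in CF1-labelled iPSCs and 103 and 94.9 FPKM in CF1_D0, against 124 and 90.3 FPKM in TFR_iPSC and 245 and 251 FPKM in TFR_D0. Its difference was 2.90 ± 0.19 (limma, adjusted p = 9.19e-08), and that of Mirg 2.56. Of the paternally expressed genes of the locus, Dlk1 fell in both arms, to 1.18 and 1.65 FPKM in CF1-labelled iPSCs and 0.878 and 0.711 FPKM in TFR_iPSC, with a difference of -0.69 that was not called.

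Among 42 other imprinted genes, the difference was called positive for 10 and negative for 2, against 5.84% and 4.92% of all genes, with a median of 0.30. The negative count was 1 when any library other than TFR_iPSC replicate 1 was left out. Peg3, a paternally expressed zinc-finger gene, had 20.1 and 19.5 FPKM in CF1-labelled iPSCs and 15.3 and 15.4 FPKM in CF1_D0, against 4.05 and 2.69 FPKM in TFR_iPSC and 47.7 and 39.8 FPKM in TFR_D0. All 4 TFR libraries lay outside the range of the CF1 libraries, below it in iPSCs and above it at day 0, and the difference was 3.71 ± 0.19 (limma, adjusted p = 1.33e-08). Mest, a paternally expressed hydrolase, had 22.6 and 21.9 FPKM in CF1-labelled iPSCs and 7.96 and 9.61 FPKM in CF1_D0, against 18.8 and 15.8 FPKM in TFR_iPSC and 93.8 and 92.8 FPKM in TFR_D0. Its iPSC gap was 0.35 and its day 0 gap -3.27, so the difference of 3.62 ± 0.14 (limma, adjusted p = 1.42e-09) lay almost wholly in the fibroblasts. Mest overlaps Copg2 on the opposite strand, and the sources used here do not say whether strand was used in counting.

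H19, the growth-restraining noncoding RNA, had 7.82 and 7.23 FPKM in CF1-labelled iPSCs and 1110 and 1030 FPKM in CF1_D0, against 1.74 and 2.03 FPKM in TFR_iPSC and 1380 and 1400 FPKM in TFR_D0, a difference of 1.95. Plagl1, a zinc-finger factor, differed by 1.41, Impact, a translational regulator, by 1.37, and the amino-acid transporter gene Slc38a4 by 1.62. Phlda2, a maternally expressed restrainer of placental growth, went the other way, with 8.50 and 4.57 FPKM in CF1-labelled iPSCs against 25.9 and 38.9 FPKM in TFR_iPSC and at most 0.137 FPKM at day 0 in either arm. The fitted difference was -2.19 ± 0.32 (limma, adjusted p = 0.000141). H19 fell in both arms, Mest rose in the CF1 arm and fell in the TFR arm, and Peg3 fell in the TFR arm alone. The part of fibroblast RNA in the values of imprinted genes was not tested.

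**Figure D4:**
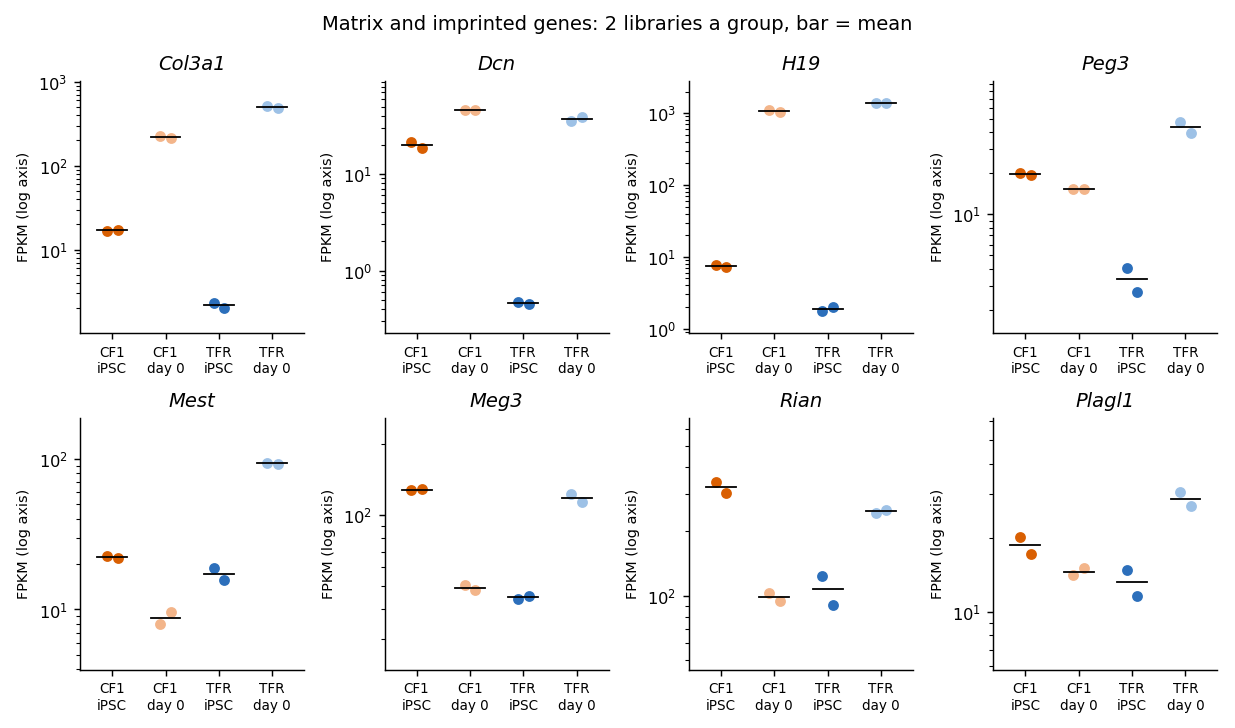
FPKM on a log axis of the matrix genes Col3a1 and Dcn and the imprinted genes H19, Peg3, Mest, Meg3, Rian and Plagl1 in CF1_iPSC, CF1_D0, TFR_iPSC and TFR_D0, each point 1 library and each bar the mean of 2. Col3a1, Dcn and H19 are lower in iPSCs than at day 0 in both arms and lowest in TFR iPSCs; Meg3 and Rian are higher in CF1-labelled iPSCs than in CF1_D0 and lower in TFR iPSCs than in TFR_D0.

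Of the 4 delivered factors, Myc and Klf4 had a lower CF1 change and Sox2 and Pou5f1, which encodes Oct4, were not called. Deposited FPKM do not tell transcripts of the delivered copies from those of the cells' own genes. Myc had 3.99 and 3.89 FPKM in CF1-labelled iPSCs and 54.9 and 51.7 FPKM in CF1_D0, against a mean of 11 ± 1.72 FPKM in TFR_iPSC (SD, n = 2) and 32.3 and 32.5 FPKM in TFR_D0. It fell in both arms, further in the CF1 arm, and the difference was -1.96 ± 0.27 (limma, adjusted p = 8.17e-05), although other genes of its chromosome, 15, were higher as a whole in CF1-labelled iPSCs. Klf4 had 33.7 and 40.6 FPKM in CF1-labelled iPSCs and 32.2 and 33.4 FPKM in CF1_D0, against 77.7 and 98.5 FPKM in TFR_iPSC and 22.2 and 23 FPKM in TFR_D0. It was called higher in the TFR arm alone, and the difference was -1.74 ± 0.30 (limma, adjusted p = 0.000555). Pou5f1 had 574 and 581 FPKM in CF1-labelled iPSCs and 603 and 895 FPKM in TFR_iPSC, and was listed at 0 in all 4 day 0 libraries; its difference was -0.35 (limma, adjusted p = 0.434). Sox2 had 126 and 128 FPKM in CF1-labelled iPSCs and 142 and 194 FPKM in TFR_iPSC, a difference of -0.92. Of the 4 factors, 3 were called negative with a pseudocount of 0.1, against 2 here. The count was also 3 under both rescalings of FPKM given further on.

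Most tested genes of the naive programme were not called for the difference. Of 30 tested naive genes, 28 rose in each arm. The difference was called positive for 1 and negative for 4, against 5.84% and 4.92% of all genes. The other 25 were not called, and the median was -0.12. Dppa3, a maternal protein that protects methylation in the zygote, had 33.9 and 25.7 FPKM in CF1-labelled iPSCs against 9.85 and 11.5 FPKM in TFR_iPSC, and at most 0.0579 FPKM at day 0; its difference was 1.32. The homeobox gene Gbx2 had 7.01 and 9.14 FPKM in CF1-labelled iPSCs and 17.6 and 19.8 FPKM in TFR_iPSC, a difference of -1.19. Jam2 differed by -1.57, Klf5 by -1.11 and Klf2 by -1.21, and the day 0 gap was the larger one for Jam2 and Klf5. The call for Klf2 was lost without either CF1_D0 library, CF1_iPSC replicate 1, TFR_D0 replicate 2 or TFR_iPSC replicate 2, and its difference was -0.85 without the last of these. Among 16 genes of the primed and formative states the difference was called negative for 3 and positive for 0, with a median of -0.41. Lefty2, an inhibitor of Nodal signalling, had 2.32 and 2.82 FPKM in CF1-labelled iPSCs and 16.3 and 17.5 FPKM in TFR_iPSC, and was listed at 0 in all 4 day 0 libraries. The fitted difference was -2.33 ± 0.12 (limma, adjusted p = 1.36e-08). Its neighbour Lefty1 differed by -1.54, but by -0.78 with a pseudocount of 0.1 (limma, adjusted p = 0.51), and the call was also lost under both rescalings of FPKM. The difference of the RNA-binding protein gene Lin28a, with 33.6 and 38.3 FPKM in CF1-labelled iPSCs and 84.2 and 93.6 FPKM in TFR_iPSC, was -1.28.

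Single genes of Wnt and FGF signalling were lower in CF1-labelled iPSCs than in TFR_iPSC. Notum, a secreted enzyme that inactivates Wnt proteins and is induced by Wnt signalling, had 1.15 and 2.24 FPKM in CF1-labelled iPSCs and 2.00 and 1.45 FPKM in CF1_D0, against 9.47 and 13.2 FPKM in TFR_iPSC and 0.539 and 0.920 FPKM in TFR_D0. It rose in the TFR arm alone, and the difference was -2.86 ± 0.29 (limma, adjusted p = 5.14e-06). Notum overlaps the antisense gene Notumos. The Wnt target Lef1 had 0.512 and 0.341 FPKM in CF1-labelled iPSCs and 2.72 and 2.56 FPKM in TFR_iPSC, a difference of -1.57. Of 17 tested Wnt targets, 3 were called negative and 1, the receptor gene Lgr5, positive, against 4.92% and 5.84% of all genes, and 13 were not called. The median was -0.33, and -0.09 without TFR_D0 replicate 2 or TFR_iPSC replicate 2. Lgr5 was at 16.9 and 15.4 FPKM in TFR_D0 and at most 0.726 FPKM in the other 3 groups. Fgf17, a ligand of FGF receptors, had 2.58 and 4.08 FPKM in CF1-labelled iPSCs against 13.5 and 21.0 FPKM in TFR_iPSC, a difference of -2.15. Tcf15, a basic helix-loop-helix factor of cells leaving the naive state, had 4.96 and 4.69 FPKM in CF1-labelled iPSCs against 16.4 and 30.9 FPKM in TFR_iPSC, a difference of -2.02.

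ERK-induced genes and feedback inhibitors were called negative for 10 and positive for 3 of 24 tested members, with a median of -0.55. The day 0 gap was the larger one for 9 of the 13. Spry4, an inhibitor of receptor tyrosine kinase signalling, had 2.13 and 2.52 FPKM in CF1-labelled iPSCs and 7.38 and 7.07 FPKM in CF1_D0, against 8.84 and 8.57 FPKM in TFR_iPSC and 6.40 and 5.45 FPKM in TFR_D0. The day 0 groups lay close together, the iPSC groups did not overlap, and the difference was -1.80 ± 0.15 (limma, adjusted p = 1.07e-06). Egr1, an immediate-early factor, was at 0.306 and 0.262 FPKM in CF1-labelled iPSCs and 5.19 and 5.03 FPKM in TFR_iPSC, a difference of -1.08, and Spry2 differed by -1.79. Fosl1, at -2.76, and the phosphatase gene Dusp4, at -2.26, had the larger gap at day 0, where Dusp4 had 70.5 and 71.2 FPKM against 10.7 and 9.22 FPKM in TFR_D0. Fosb and Fos differed the other way, by 3.67 and 1.5, also with the larger gap at day 0. Fosb had 0.134 and 0.0742 FPKM in CF1-labelled iPSCs and 1.47 and 1.97 FPKM in CF1_D0, against 0.0850 and 0.115 FPKM in TFR_iPSC and 36.8 and 30.2 FPKM in TFR_D0. Its iPSC libraries overlap between the arms, and the difference was 3.67 ± 0.20 (limma, adjusted p = 1.7e-08).

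Part of the ribosome biogenesis list had lower CF1 changes. Of 25 genes, 8 were called negative and 0 positive and 17 were not called, with a median of -0.71, and the day 0 gap was the larger one for 7. Nop2, an rRNA methyltransferase, had 50.9 and 56.5 FPKM in CF1-labelled iPSCs and 56.6 and 52.3 FPKM in CF1_D0, against 61.5 and 78.3 FPKM in TFR_iPSC and 25.4 and 23.5 FPKM in TFR_D0. The CF1 libraries overlap between iPSCs and day 0, and the difference was -1.49 ± 0.16 (limma, adjusted p = 1.24e-05). Ddx21, a nucleolar helicase, differed by -1.29 and Ncl, nucleolin, by -1.13. Of 25 proliferation genes, 1 was called negative and 0 positive, with a median of -0.44. The cell cycle gene Ccnd1, a member of the ERK and Wnt lists, had 22.0 and 23.7 FPKM in CF1-labelled iPSCs and 113 and 118 FPKM in CF1_D0, against 41.8 and 43.1 FPKM in TFR_iPSC and 56.1 and 53.3 FPKM in TFR_D0, a difference of -1.93. Wdr46 and Pfdn6 on chromosome 17, which encode a ribosome assembly factor and a prefoldin subunit, differed by -1.82 and -2.03. The TFR_iPSC replicates of Pfdn6 stood at 24.6 and 72.5 FPKM, and its call was lost when only the 8 libraries were fitted (limma, adjusted p = 0.07).

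The day 0 fibroblasts differed in their makeup of markers. Of 13 macrophage genes, 9 were called negative and 0 positive, with a median of -1.19, and the day 0 gap was the larger one for all 9. Lyz2, the macrophage lysozyme, had 6.93 and 3.82 FPKM in CF1-labelled iPSCs and 207 and 195 FPKM in CF1_D0, against 2.85 and 3.35 FPKM in TFR_iPSC and 13.9 and 17.2 FPKM in TFR_D0. CF1_D0 alone stood apart, and the difference was -3.02 ± 0.34 (limma, adjusted p = 1.41e-05). The chemokine gene Ccl6 had 40.9 and 39.7 FPKM in CF1_D0 and at most 0.0545 FPKM in the other 6 libraries, a difference of -5.34 ± 0.15 (limma, adjusted p = 9.98e-11). Ccl9, the lectin receptor gene Clec4n and the scavenger receptor gene Msr1, all known from macrophages, followed with -3.81, -3.48 and -3.28. Summed over the list, FPKM was 79.7 and 76.2 in CF1-labelled iPSCs and 316 and 296 in CF1_D0, against 53.6 and 50.6 in TFR_iPSC and 35.0 and 37.1 in TFR_D0. No tested marker of the list was at 0 in CF1_D0, where Cd68, a lysosomal protein of macrophages, had 26.6 and 28.8 FPKM against 2.27 and 2.22 FPKM in TFR_D0. The part of macrophage RNA in other differences was not tested. Pianp, a ligand of a myeloid receptor, differed by -3.64, with higher levels in iPSCs than at day 0 in the TFR arm alone. Apoe, apolipoprotein E, had 138 and 167 FPKM in CF1-labelled iPSCs and 50 and 40.6 FPKM in CF1_D0, against 128 and 323 FPKM in TFR_iPSC and 5.55 and 5.29 FPKM in TFR_D0, a difference of -3.27. Its iPSC libraries overlap between the arms.

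TFR_D0 stood higher in another set of genes. Igfbp5, which binds insulin-like growth factors, had 0.232 and 0.219 FPKM in CF1-labelled iPSCs and 7.69 and 7.26 FPKM in CF1_D0, against 0.125 and 0.125 FPKM in TFR_iPSC and 196 and 167 FPKM in TFR_D0, a difference of 4.55 ± 0.22 (limma, adjusted p = 9.19e-09). Penk, which encodes the enkephalin precursor, Cxcl5, a neutrophil chemokine, and Serpina3n, a protease inhibitor of a family with near-identical copies, followed with 3.59, 3.61 and 3.61. Their day 0 gaps were -3.76, -1.82 and -2.41, and their iPSC gaps -0.17, 1.79 and 1.20. The differences of Cxcl5 and Serpina3n thus lay in the iPSCs as well as in the fibroblasts. Nnmt, which methylates nicotinamide, had 7.86 and 5.81 FPKM in CF1-labelled iPSCs and 2.92 and 2.12 FPKM in CF1_D0, against 1.58 and 0.951 FPKM in TFR_iPSC and 9.92 and 12.4 FPKM in TFR_D0, and was called in opposite directions, with a difference of 3.59.

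Of 21 cholesterol synthesis genes, 9 were called positive and 0 negative, with a median of 0.80, and the day 0 gap was the larger one for all 9. Insig1, which restrains sterol synthesis, had 66.5 and 60.1 FPKM in CF1-labelled iPSCs and 16.4 and 17.0 FPKM in CF1_D0, against 72.5 and 67.6 FPKM in TFR_iPSC and 65.9 and 62.8 FPKM in TFR_D0. CF1_D0 was below the other 3 groups, which lay within 60.1 to 72.5 FPKM, and the difference was 1.74 ± 0.12 (limma, adjusted p = 2.21e-07). Hmgcs1, Fdft1 and Sqle, enzymes of the pathway, differed by 1.36, 1.36 and 1.34. Summed over the list, FPKM was 745 and 739 in CF1-labelled iPSCs, below 975 and 964 in TFR_iPSC. At day 0 the sums were 462 and 455 in CF1_D0, against 1190 and 1160 in TFR_D0. The median gap of the list was -0.48 in iPSCs and -1.35 at day 0, so CF1 was the lower arm at both. Of 36 Hox genes, 7 were called positive and 0 negative, with a median of 0.18; they include Hoxa13 at 1.80 and Hoxd13 at 1.74, whose levels at day 0 were 1.35 and 1.76 FPKM and 12.7 and 11.7 FPKM in CF1_D0, against 7.53 and 7.19 FPKM and 32.4 and 32.6 FPKM in TFR_D0. Of 19 genes of senescence and the p53 response, 5 were called negative and 1 positive, with a median of -0.42. Mdm2, the p53 inhibitor that p53 induces, had 53.3 and 52.5 FPKM in CF1-labelled iPSCs and 128 and 140 FPKM in CF1_D0, against 44.8 and 37.1 FPKM in TFR_iPSC and 34.5 and 34.0 FPKM in TFR_D0, a difference of -1.57 ± 0.12 (limma, adjusted p = 5.24e-07).

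The Nnt entries, which share one locus, differed by 5.47 and -3.44, both with the larger gap at day 0. Rpl34, a ribosomal protein gene, differed by 3.98. These are among the 31 genes that separate the stocks, of which 30 were called, and their values follow the position of the CF1-labelled iPSCs described above. The 31 genes were chosen with the day 0 libraries of both arms and the TFR_iPSC libraries, which also enter the tested difference. With the CF1-labelled iPSCs in that position, a call was largely set by this choice, so the count of 30 is not a separate result.

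Some interferon-induced genes and, depending on the libraries used, some mitochondrial genes had higher CF1 changes. Of 33 interferon and antigen processing genes, 8 were called positive and 0 negative, with a median of 0.49, and the iPSC gap was the larger one for 7. Oasl2, an antiviral protein, had 15.2 and 12.4 FPKM in CF1-labelled iPSCs and 6.92 and 5.58 FPKM in CF1_D0, against 2.09 and 2.40 FPKM in TFR_iPSC and 4.05 and 3.57 FPKM in TFR_D0, a difference of 1.60 ± 0.18 (limma, adjusted p = 1.31e-05). Ifit1, which binds foreign RNA, had 4.93 and 4.76 FPKM in CF1-labelled iPSCs and 1.08 and 0.806 FPKM in TFR_iPSC, and differed by 1.53. Of 13 protein-coding mitochondrial genes, 4 were called positive and 0 negative, with a median of 0.87. They held 12.5% and 11.8% of the FPKM sum in CF1-labelled iPSCs and 4.77% and 5.58% in CF1_D0, against 9.03% and 5.20% in TFR_iPSC and 5.08% and 5.35% in TFR_D0. The TFR_iPSC replicates differ, and the count was 11 without TFR_iPSC replicate 1, 2 without TFR_iPSC replicate 2 or CF1_iPSC replicate 1, and 1 without CF1_D0 replicate 1 or when the 8 libraries were fitted alone. Mitochondrial tRNA genes were called positive for 13 of 22; they are shorter than the 150-base reads and were singled out after their values were seen. Among them mt-Tm had 32.8 and 34.7 FPKM in CF1-labelled iPSCs, against 2.11 to 4.50 FPKM in the other 6 libraries, a difference of 3.89.

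Genes of chromosome 15 were higher as a whole in CF1-labelled iPSCs. Among its 640 tested genes the difference was called positive for 79 (12.3%) and negative for 20 (3.12%), where the positive share of the other 18 autosomes ran from 4.14% to 8.45%. Over the 361 genes of chromosome 15 with a mean of at least 5 FPKM, the median gap to the TFR_iPSC mean was 0.42 in CF1_iPSC replicate 1 and 0.42 in replicate 2. On the other autosomes it ran from -0.14 to 0.08 in replicate 1 and from -0.06 to 0.07 in replicate 2. The gap was above 0 for 323 of the 361 genes (89.5%), against 38.8% to 58.4% on the other autosomes. At day 0 the median gap of chromosome 15 was 0.05, and the other autosomes ran from 0.05 to 0.12. In CF1_D12, the last intermediate of the chemical arm, the median change of chromosome 15 from day 0 was -0.29, within the -0.35 to -0.13 of the others. When the 361 genes were divided by position into 4 groups of 90 or 91, the median iPSC gap was 0.56, 0.38, 0.34 and 0.31 along the chromosome. Gene copy number was not measured here. Without chromosome 15, 1579 genes remained called, 832 positive and 747 negative.

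**Figure D5:**
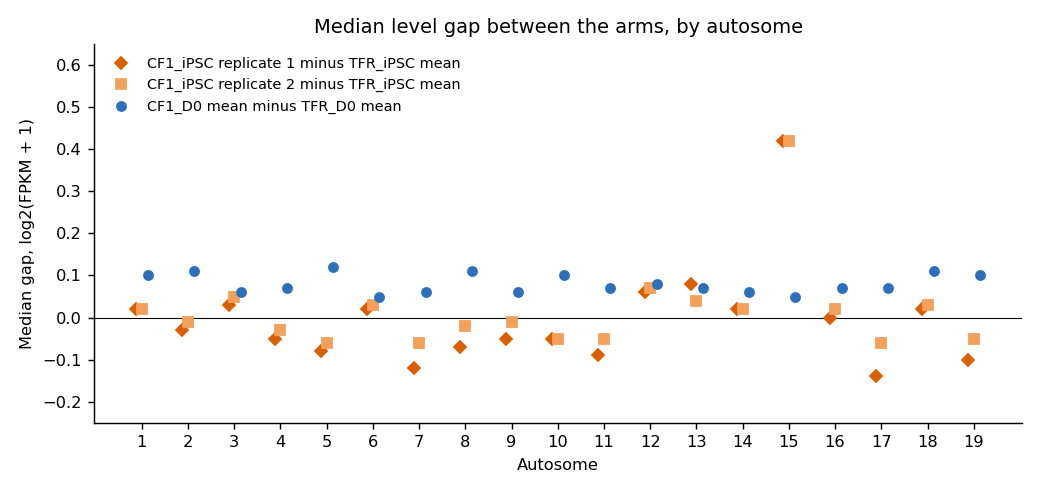
Median gap on the log2(FPKM + 1) scale between the arms for each autosome, over genes with a mean of at least 5 FPKM: each CF1_iPSC library minus the TFR_iPSC mean (diamonds and squares) and CF1_D0 minus TFR_D0 (circles). Chromosome 15 lies at 0.42 in both CF1_iPSC libraries and at 0.05 at day 0; every other autosome lies between -0.14 and 0.12.

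Levels in the intermediates are given without a test, and the CF1_iPSC libraries did not follow the CF1 libraries of days 0 to 12 at the stock-separating genes. Trib3 was low in the intermediates of both arms, at 0.457 to 1.89 FPKM on days 4 to 12 of the CF1 arm and 2.74 to 4.89 FPKM on days 2 to 7 of the TFR arm, and Chac1 at 0.0431 to 0.781 FPKM and 1.51 to 3.76 FPKM. Asns was at 6.17 to 15.1 FPKM in the CF1 intermediates. Nupr1 differed from these, with 85.5 and 74.0 FPKM on CF1 day 12. Meg3 passed through 34.3 and 35.1 FPKM on CF1 day 8 and 83.9 and 82.9 FPKM on day 12, and in the TFR arm was still at 113 and 119 FPKM on day 7. Col3a1 and Dcn were far above day 0 at the last intermediate of both arms, with 4330 and 4250 FPKM and 1100 and 1170 FPKM on CF1 day 12, and 2010 and 1940 FPKM and 267 and 254 FPKM on TFR day 7. Lyz2 had 8.36 and 7.27 FPKM on CF1 day 4, against 207 and 195 FPKM in CF1_D0. Notum had 172 and 179 FPKM on CF1 day 4, and Lefty2 and Phlda2 were at most 0.612 FPKM and 1.44 FPKM in every intermediate of both arms.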

How the data were processed

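RNA was sequenced as 150-base reads, per the labels' protocols. The deposited values are FPKM per gene, which the authors made with fastp 0.20.1, HISAT2 2.2.1 and StringTie 2.0 on mm10, per the submitters' processing notes; annotation release and strand setting are not given in the sources used here. No read counts could be recovered: 10.4% to 18.3% of the low FPKM values of a library lay on a common step.

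Gene names came from GENCODE M21. limma 3.58.1 in R 4.3.3 was fitted to log2(FPKM + 1) with 1 coefficient per group over the 20 libraries of both arms (10 residual degrees of freedom, moderated variances with a trend), and the contrast was the CF1 change minus the TFR change. On simulated data with 15589 genes the fit recovered 97 of 100 genes changed by 2 and 93 of 100 changed by 3 on the log2 scale, with 5 unchanged genes called. The simulation drew independent normal noise from the residual spread of this same fit and did not allow negative values. It therefore cannot show how spread between cultures would affect the calls. Replicate numbers did not pair libraries across groups: deviations from the group means correlated at -0.144 to 0.126.

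Named genes, beside list members, were called, autosomal, with at least 5 FPKM on average in 1 group, with no overlap of the pairwise changes of the arms, and not predicted models. These changes did not overlap for 54.7% of all tested genes and for 1677 of the 1678 called genes. A lack of overlap in a named gene is therefore no separate support. The 8 largest in each direction were taken for the iPSC and for the day 0 gap, and the 6 largest called in opposite directions; 1 gene that the rule names is not reported here. The members and gene lists were chosen with earlier results of these data known. Alternatives changed the pseudocount, filter, scaling, libraries, block, trend and sex chromosomes.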

Additional observations from a re-analysis of the deposited data

Results flagged for a closer look

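The change from fibroblast to iPSC differed between the chemical and the 4-factor arm, by the test of the difference itself, for 1678 genes. Of the 22 genes called in opposite directions in the arms, those with the largest differences under the naming rule follow. The Nnt entries differed by 5.47 and -3.44, and both lie at one locus whose entries separate the stocks. Nupr1 differed by 3.81, Mest by 3.62, Nnmt by 3.59 and Trib3 by 3.53. The position of both CF1_iPSC libraries at the genes that separate these sets of libraries applies to each of these values.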

How the results depend on the processing

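The difference was called for 1678 genes (911 positive, 767 negative). With a pseudocount of 0.1 it was called for 2550 (1536 positive, 1014 negative). With FPKM scaled to the sum outside the mitochondrial genome, chosen after seeing the data, it was called for 2482 (1452 positive, 1030 negative), and with rescaling to TPM for 2474 (1291 positive, 1183 negative); these scalings also let more genes through the filter. TPM moved the median change of all genes to -0.08 in the CF1 arm and -0.01 in the TFR arm, against 0.06 and 0.11. The replicate block gave 1661 and the 8 libraries alone 1602. Leaving out 1 library at a time gave 1577 to 1947 in all, 862 to 950 positive and 699 to 1012 negative. No named gene reversed in any of these settings. Calls were lost for Gbx2, Lefty1 and Dppa3 with the pseudocount of 0.1, for Lefty1 also under both scalings, for Pfdn6 with the 8 libraries alone, for Klf5 without TFR_iPSC replicate 1, for Ncl without CF1_iPSC replicate 1, and for Klf2 without any 1 of 5 libraries, as given above. The cause was not tested.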

Other observations

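Over all genes the difference was called positive for 5.84% and negative for 4.92%. Of 17 germline genes that methylation silences, 3 were called positive and 2 negative, with a median difference of 0.52; 1 was positive without TFR_iPSC replicate 2, and 1 negative without that library, CF1_iPSC replicate 1 or TFR_D0 replicate 1. Hormad1, a meiotic chromosome protein, had 25.1 and 23.1 FPKM in CF1-labelled iPSCs and 11.2 and 7.41 FPKM in TFR_iPSC, and was listed at 0 in all 4 day 0 libraries; its fitted difference was 1.31. Dnd1, an RNA-binding protein of germ cells, had 1.90 and 1.95 FPKM in CF1-labelled iPSCs and 5.30 and 6.54 FPKM in TFR_iPSC, a difference of -1.46. Of 14 genes of the 2-cell-like state, 0 were called positive and 1 negative, with a median of -0.53. The negative count was 0 without CF1_iPSC replicate 2 or TFR_iPSC replicate 1, 3 without CF1_iPSC replicate 1 or TFR_iPSC replicate 2, and 5 with TPM.

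Of 23 genes of glycolysis and hypoxia, 2 were called positive and 2 negative, close to the shares over all genes. The negative count was 4 without TFR_iPSC replicate 1 and 1 without CF1_D0 replicate 1, CF1_iPSC replicate 1, TFR_D0 replicate 2 or TFR_iPSC replicate 2. Vegfa, the vascular growth factor, had 35.5 and 31.9 FPKM in CF1-labelled iPSCs and 18.0 and 18.1 FPKM in CF1_D0, against 11.8 and 12.0 FPKM in TFR_iPSC and 29.6 and 29.3 FPKM in TFR_D0, a difference of 2.1. Of 15 retinoid genes, 4 were called positive and 2 negative, all with the larger gap at day 0; the negative count was 1 when CF1_D0 replicate 1, CF1_iPSC replicate 1, TFR_D0 replicate 2 or TFR_iPSC replicate 1 was left out. Crabp1, a retinoic acid binding protein, had 114 and 99 FPKM in CF1_D0, against 432 and 452 FPKM in TFR_D0, and differed by 1.99. Of 6 endothelial genes, 0 were called positive and 2 negative, among them the receptor gene Kdr, which had 5.55 and 5.54 FPKM in CF1_D0 against 1.01 and 0.874 FPKM in TFR_D0. Gsta1, a glutathione transferase, had 3.37 and 3.46 FPKM in CF1_D0 and at most 0.225 FPKM in the other 6 libraries.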
